A study of Mus musculus with 6 samples.

Results

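The 59 genes described here encode the semaphorins, ephrins, slits and netrins and their receptors, chosen by name and matched by NCBI gene number, out of 21117 genes in the table. All 59 were found, 33 of them ligands and 26 receptors. Poly(A) RNA of aortic tissue was sequenced from untreated mice aged 32 weeks, in 3 samples of genotype Fbn1C1041G/+ and 3 wild-type (WT) samples. Fbn1C1041G changes 1 amino acid of fibrillin-1, a microfibril protein, in every tissue, and heterozygous carriers serve as a mouse model of Marfan syndrome, in which the aorta widens. The labels do not give the aortic segment, the sex or the strain, nor whether each sample was 1 animal. The design text asks which genes differ between Fbn1 and wild mice. Levels are in FPKM, fragments scaled to transcript length and to library depth, which can be compared between genes.

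Guidance proteins were first known for steering growing axons. Semaphorins signal through plexins, with neuropilins as coreceptors for most of the secreted class. Ephrins sit on the cell surface and bind Eph receptor kinases, slits bind Robo receptors, and netrins bind Dcc and Unc5 receptors. In vessels the same proteins act on endothelial and smooth muscle cells and pattern the sympathetic nerves that supply the wall.

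Judged from steps between low FPKM values, the libraries held 14570000 to 16710000 fragments in Fbn1C1041G/+ samples and 13620000 to 16650000 fragments in WT samples. WT replicate 3 stood apart by low values of GC-rich transcripts, with a correlation of -0.38 across all tested genes between its deviation from the WT mean and GC content. Fbn1 stood at 24.2 ± 3.81 FPKM in Fbn1C1041G/+ and 18.8 ± 2.93 FPKM in WT samples (SD, n = 3 each), and since a missense allele need not alter transcript levels, this does not check the labels. The smooth muscle markers Myh11, Acta2 and Tagln and 3 more summed to 9877 to 12055 FPKM in Fbn1C1041G/+ and 9159 to 10729 FPKM in WT libraries, with 0 of 6 called, so the labelled tissue had abundant smooth muscle transcripts. Markers of other cells moved with the genotype. On the list of sympathetic neuron or chromaffin markers, which holds Th and Dbh, 9 of 10 were lower in Fbn1C1041G/+ samples, with sums of 222.9 to 386.5 FPKM in Fbn1C1041G/+ and 1711 to 2002 FPKM in WT libraries. On the Schwann cell or glia list 2 of 6 were lower. Higher in Fbn1C1041G/+ samples were 5 of 6 tested cardiomyocyte markers, 1 of 5 macrophage markers and 1 of 3 genes on the lymphocyte list. The last was Ptprc, which other leukocytes also express, and Cd3e and Cd79a were not called. Of the cardiomyocyte markers, Myh6 and Mybpc3 averaged 0.637 and 0.0533 FPKM in WT samples. They reached the mean of 1 FPKM needed for testing through the Fbn1C1041G/+ values. By the same test, 0 of 5 adventitial fibroblast, 0 of 7 endothelial, 0 of 3 adipocyte and 0 of 3 tested mesothelial markers were called in either direction. WT replicate 3 had the highest adipocyte sum of all libraries, 2107 FPKM, against 529.7 and 831.2 FPKM in WT replicates 1 and 2. Its endothelial sum was also the highest, 455.7 FPKM, against 322.4 and 312.4 FPKM in WT replicates 1 and 2. In bulk tissue, fewer cells of a type and less RNA per cell cannot be told apart.

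Of the guidance genes, 2 differed between mutant and wild-type aortas by the test used, and both were lower. Plxnc1, a plexin that binds Sema7a, and Sema6d, a membrane semaphorin that binds plexin-A1, fell in Fbn1C1041G/+ samples. Where the 6 libraries averaged 1 FPKM or more, a gene was tested with limma on log2(FPKM + 1), with p-values adjusted over all tested genes, and a gene was called at an adjusted p under 0.05. Of the 59 guidance genes, 48 passed the filter, 27 ligands and 21 receptors. Called lower were 1 of 27 ligands and 1 of 21 receptors, together 4.17% of the 48, against 4.85% of all 13438 tested genes (5.60% in either direction). Called higher were 0 of 48, against 0.744% of all tested genes, and 8 of the 48 had an unadjusted p under 0.05 in either direction, against 15.2% of all tested genes. The share called was thus near that of the whole table. The 3 Fbn1C1041G/+ values lay wholly below the WT values for 5 of the 48 and wholly above for 3, against 13.1% and 6.85% of all tested genes (16.7% of the guidance genes and 20.0% of all genes in either direction). The median log2 fold change, Fbn1C1041G/+ minus WT, was 0.09 over the tested ligands and 0.11 over the tested receptors, against -0.0036 over all tested genes. The sign of the ligand median rested on single libraries, since it was -0.06 without WT replicate 3 and -0.05 without Fbn1C1041G/+ replicate 2.

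**Figure D1:**
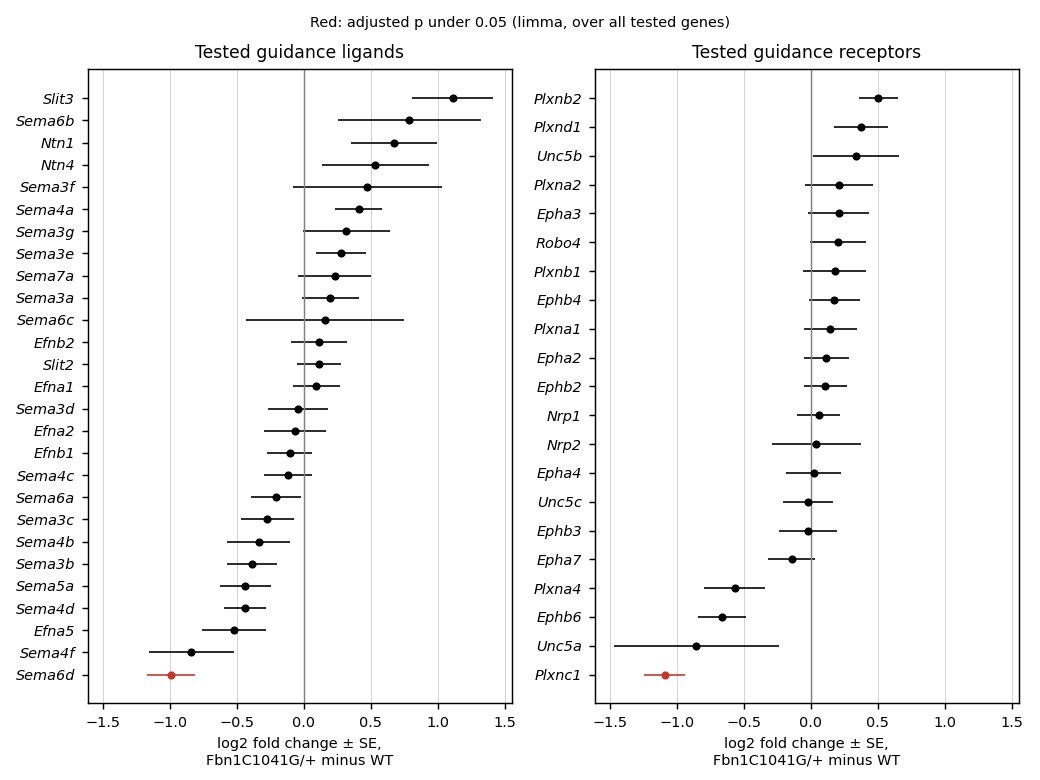
Log2 fold change with its SE for each of the 27 tested ligands (left) and 21 tested receptors (right), Fbn1C1041G/+ minus WT on the log2(FPKM + 1) scale, n = 3 each. Red marks an adjusted p under 0.05 in limma, which held for Sema6d at -0.99 and Plxnc1 at -1.09, at the bottom of their panels; Slit3 lies at the top of the ligands at 1.11 without a call.

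Among the ligands, Slit3, Ntn1 and Sema3f had the highest mean levels over the 6 libraries. In WT samples Slit3, at a mean of 28.4 FPKM, was below Sema3f at 38.2 FPKM and Ntn1 at 35.0 FPKM. Slit3 (NCBI gene 20564), a secreted Robo ligand, stood at 38.2, 73.4 and 84.4 FPKM in Fbn1C1041G/+ replicates 1 to 3, against 31.6, 23.6 and 29.95 FPKM in WT replicates 1 to 3. Every Fbn1C1041G/+ value was above every WT value, but Fbn1C1041G/+ replicate 1 was closer to the WT libraries than to the other mutant ones. The log2 fold change was 1.11 ± 0.30 (SE), and the limma adjusted p of 0.0992 missed the threshold. Leaving out Fbn1C1041G/+ replicate 1 raised it to 1.45 (limma adjusted p = 0.0165), while leaving out Fbn1C1041G/+ replicate 3 gave 0.89 (adjusted p = 0.306). Slit3 made up 12.3%, 18.3% and 21.9% of the summed ligand FPKM in Fbn1C1041G/+ replicates 1 to 3, against 8.39%, 7.55% and 11.8% in WT replicates 1 to 3. The other slits were far lower: Slit2 lay at 1.13 to 1.38 FPKM in Fbn1C1041G/+ and 0.86 to 1.33 FPKM in WT libraries, and Slit1 at no more than 0.10 FPKM in any library.

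Both netrins had positive log2 fold changes without a call. Ntn1, netrin-1, the ligand of Dcc and the Unc5 receptors, stood at 46.97, 56.0 and 55.3 FPKM in Fbn1C1041G/+ replicates 1 to 3, against 50.4, 35.1 and 19.4 FPKM in WT replicates 1 to 3. The mutant libraries were close together and the WT libraries were spread widely, with WT replicate 1 among the mutant values. It was not called (limma adjusted p = 0.403; log2 fold change 0.67 ± 0.32, SE), and the log2 fold change was 0.32 without WT replicate 3. Ntn4, a laminin-related netrin of basement membranes, stood at 15.2, 29.3 and 51.4 FPKM in Fbn1C1041G/+ replicates 1 to 3, against 16.0, 21.98 and 20.6 FPKM in WT replicates 1 to 3. Here the mutant libraries were the spread ones, replicate 1 below and replicate 3 above all WT values (log2 fold change 0.53 ± 0.40, SE; limma adjusted p = 0.692). The log2 fold change was 0.12 without Fbn1C1041G/+ replicate 3 and 0.97 without Fbn1C1041G/+ replicate 1, with no call in either.

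**Figure D2:**
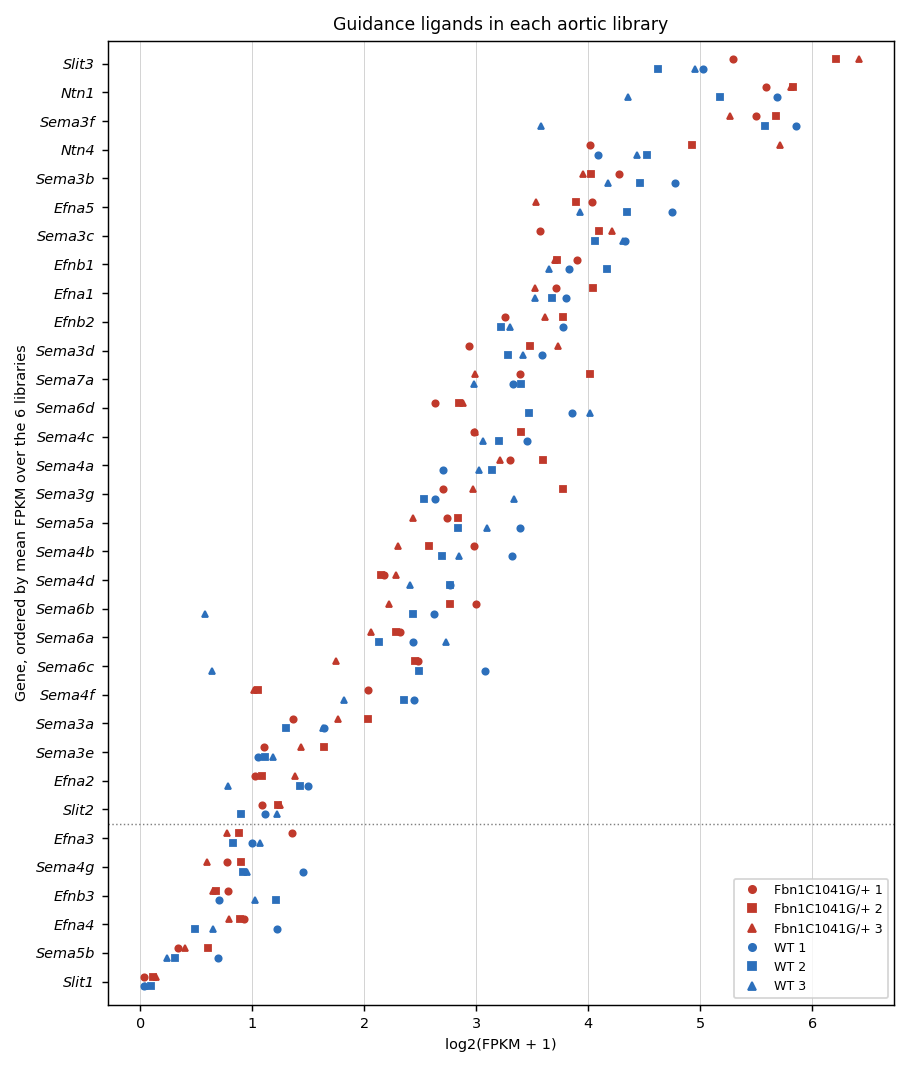
Level of each of the 33 guidance ligands as log2(FPKM + 1) in each library, red for Fbn1C1041G/+ (upper row of each gene) and blue for WT (lower row), with marker shapes for replicates 1 to 3 and genes ordered by mean FPKM. The dotted line separates the 27 tested ligands from the 6 with a mean under 1 FPKM; the red Sema6d points lie left of the blue ones, the red Slit3 points lie right of them, and WT replicate 3 stands alone on the left for Sema3f, Sema6b and Sema6c.

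Semaphorins as a family had 1 call among 18 tested genes, and their summed level was 160.5 ± 19.9 FPKM in Fbn1C1041G/+ and 170.7 ± 36.9 FPKM in WT samples (SD, n = 3 each). Sema6d (NCBI gene 214968) stood at 5.20, 6.21 and 6.38 FPKM in Fbn1C1041G/+ replicates 1 to 3, against 13.4, 10.1 and 15.2 FPKM in WT replicates 1 to 3. The mutant libraries lay close together and all below the lowest WT library. Its mean was 5.93 ± 0.638 FPKM in Fbn1C1041G/+ and 12.9 ± 2.59 FPKM in WT samples (SD, n = 3 each), a ratio of 0.459 (limma adjusted p = 0.0202; log2 fold change -0.99 ± 0.18, SE). The direction held in each fit that left out 1 library, but the call ended without Fbn1C1041G/+ replicate 1, 2 or 3 (adjusted p 0.0764, 0.0563 and 0.0700) and without WT replicate 1 (0.0907). The other class 6 semaphorins, also membrane proteins, were not called. Sema6a averaged 3.68 ± 0.439 FPKM in Fbn1C1041G/+ and 4.47 ± 1.14 FPKM in WT samples (SD, n = 3 each).

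The secreted class 3 semaphorins, most of which signal through neuropilins, were not called for any of 7 genes. Sema3f, a ligand of neuropilin-2, stood at 44.1, 50.1 and 37.4 FPKM in Fbn1C1041G/+ replicates 1 to 3, against 57.01, 46.7 and 10.95 FPKM in WT replicates 1 to 3. WT replicate 3 was far below the other 5 libraries, and the sign of the difference rested on it: the log2 fold change was 0.47 with all libraries and -0.24 without WT replicate 3, with no call in either. Sema3b stood at 18.3, 15.3 and 14.5 FPKM in Fbn1C1041G/+ replicates 1 to 3, against 26.3, 20.99 and 17.1 FPKM in WT replicates 1 to 3, and the groups overlapped at Fbn1C1041G/+ replicate 1 (log2 fold change -0.39 ± 0.19, SE, and -0.23 without WT replicate 1; limma adjusted p = 0.422). Sema3c, Sema3d and Sema3g had means of 14.8, 9.71 and 8.36 FPKM in Fbn1C1041G/+ and 17.9, 9.81 and 6.36 FPKM in WT samples. Sema3a and Sema3e, the plexin-D1 ligand, lay between 1.07 and 3.09 FPKM in all libraries.

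Among the membrane semaphorins of class 4, Sema4d, a ligand of plexin-B1, stood at 3.53, 3.45 and 3.88 FPKM in Fbn1C1041G/+ replicates 1 to 3, against 5.82, 5.79 and 4.31 FPKM in WT replicates 1 to 3. The groups did not overlap, and the log2 fold change of -0.44 ± 0.15 (SE) was not called (limma adjusted p = 0.209). Sema4f stood at 3.09, 1.07 and 1.02 FPKM in Fbn1C1041G/+ replicates 1 to 3, against 4.43, 4.13 and 2.53 FPKM in WT replicates 1 to 3. Fbn1C1041G/+ replicate 1 lay inside the WT range, well above the other mutant libraries (log2 fold change -0.84 ± 0.32, SE; limma adjusted p = 0.252). Sema4a went the other way, with 8.88, 11.1 and 8.24 FPKM in Fbn1C1041G/+ replicates 1 to 3, against 5.52, 7.84 and 7.16 FPKM in WT replicates 1 to 3. Its groups did not overlap either, and it was not called (log2 fold change 0.41 ± 0.18, SE; limma adjusted p = 0.336). Sema5a, a membrane semaphorin with thrombospondin repeats, averaged 5.41 ± 0.903 FPKM in Fbn1C1041G/+ and 7.73 ± 1.68 FPKM in WT samples (SD, n = 3 each; log2 fold change -0.44, limma adjusted p = 0.345). Sema7a, the ligand of plexin-C1, stood at 9.47, 15.2 and 6.93 FPKM in Fbn1C1041G/+ replicates 1 to 3, against 9.02, 9.58 and 6.87 FPKM in WT replicates 1 to 3. Its groups overlapped and it was not called (log2 fold change 0.23).

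None of the 5 tested ephrins was called, and their log2 fold changes ran from -0.52 to 0.11. Efna5, which is tethered to the membrane by a lipid anchor, averaged 13.3 ± 2.46 FPKM in Fbn1C1041G/+ and 19.8 ± 5.84 FPKM in WT samples (SD, n = 3 each), and Fbn1C1041G/+ replicate 1 at 15.4 FPKM lay above WT replicate 3 at 14.2 FPKM. Efnb2, a marker of arterial endothelium and the ligand of Ephb4, averaged 10.8 ± 2.12 FPKM in Fbn1C1041G/+ and 9.96 ± 2.35 FPKM in WT samples (SD, n = 3 each). Sema4b and Sema4c, membrane semaphorins, and Efna2 were not called either, with log2 fold changes of -0.34, -0.12 and -0.07. Efna1 and Efnb1 averaged 12.7 FPKM each in Fbn1C1041G/+ samples, against 11.7 and 13.9 FPKM in WT samples.

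Among the receptors, Nrp1, Plxnb2, Ephb4, Plxnd1 and Robo4 had the highest levels, and 0 of these 5 were called. Nrp1, neuropilin-1, a coreceptor for class 3 semaphorins and for VEGF, stood at 21.8, 26.1 and 23.9 FPKM in Fbn1C1041G/+ replicates 1 to 3, against 21.8, 20.05 and 27.4 FPKM in WT replicates 1 to 3, and the groups overlapped throughout (log2 fold change 0.06 ± 0.16, SE). Plxnb2, a plexin that binds class 4 semaphorins, stood at 26.4, 26.5 and 24.2 FPKM in Fbn1C1041G/+ replicates 1 to 3, against 20.6, 15.8 and 17.3 FPKM in WT replicates 1 to 3. All mutant libraries were above all WT libraries, and the adjusted p of 0.121 missed the threshold in limma (log2 fold change 0.50 ± 0.14, SE). Plxnd1, the receptor of Sema3e, stood at 17.9, 23.4 and 19.6 FPKM in Fbn1C1041G/+ replicates 1 to 3, against 17.99, 17.5 and 11.5 FPKM in WT replicates 1 to 3, which left a narrow overlap at replicate 1 (log2 fold change 0.37 ± 0.20, SE, and 0.18 without WT replicate 3; limma adjusted p = 0.5002). Ephb4, the receptor of Efnb2, averaged 20.2 ± 4.36 FPKM in Fbn1C1041G/+ and 17.6 ± 1.89 FPKM in WT samples, and Robo4, an endothelial Robo protein, 14.2 ± 3.89 FPKM in Fbn1C1041G/+ and 11.98 ± 1.18 FPKM in WT samples (SD, n = 3 each).

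**Figure D3:**
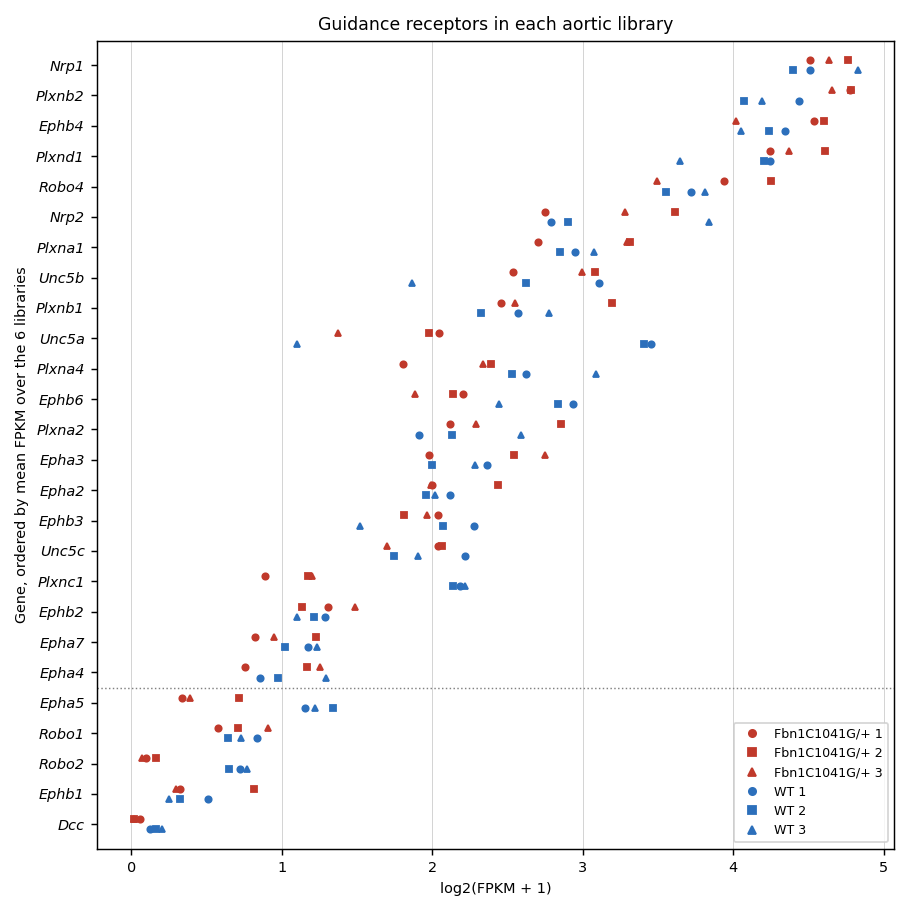
Level of each of the 26 guidance receptors as log2(FPKM + 1) in each library, red for Fbn1C1041G/+ (upper row of each gene) and blue for WT (lower row), with marker shapes for replicates 1 to 3. The dotted line separates the 21 tested receptors from the 5 with a mean under 1 FPKM; red and blue mix for Nrp1 and Ephb4, while the red points lie left of the blue ones for Plxnc1, Epha5 and Robo2.

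Plxnc1 (NCBI gene 54712) was the receptor that fell. It stood at 0.85, 1.26 and 1.30 FPKM in Fbn1C1041G/+ replicates 1 to 3, against 3.55, 3.40 and 3.65 FPKM in WT replicates 1 to 3. Both groups were tight and lay far apart. With the estimated depth these values rested on about 104, 134 and 147 fragments in Fbn1C1041G/+ and 414, 413 and 363 fragments in WT replicates 1 to 3. Its mean was 1.14 ± 0.249 FPKM in Fbn1C1041G/+ and 3.53 ± 0.126 FPKM in WT samples (SD, n = 3 each), a ratio of 0.322. The limma adjusted p was 0.00701 (log2 fold change -1.09 ± 0.15, SE), and the call held in each fit that left out 1 library, with adjusted p of at most 0.0393.

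The other receptors with negative values were less even. Ephb6, an Eph receptor without kinase activity, stood at 3.60, 3.40 and 2.69 FPKM in Fbn1C1041G/+ replicates 1 to 3, against 6.64, 6.15 and 4.43 FPKM in WT replicates 1 to 3. The groups did not overlap, and the log2 fold change of -0.66 ± 0.18 (SE) was not called (limma adjusted p = 0.103) with all libraries, whereas leaving out WT replicate 3 gave -0.81 (adjusted p = 0.0354). Plxna4, a plexin of sensory and sympathetic neurons that works with neuropilins, stood at 2.49, 4.25 and 4.04 FPKM in Fbn1C1041G/+ replicates 1 to 3, against 5.16, 4.78 and 7.49 FPKM in WT replicates 1 to 3. Again the groups did not overlap and there was no call (log2 fold change -0.57 ± 0.23, SE; limma adjusted p = 0.281). Unc5a, a netrin receptor of neurons, stood at 3.13, 2.93 and 1.59 FPKM in Fbn1C1041G/+ replicates 1 to 3, against 9.97, 9.61 and 1.14 FPKM in WT replicates 1 to 3. WT replicate 3 was the lowest of all 6 libraries while the other WT libraries were the highest. It was not called with all libraries (limma adjusted p = 0.674; log2 fold change -0.86 ± 0.62, SE), and leaving out WT replicate 3 gave -1.63 (adjusted p = 0.00991). Its relative Unc5b, found in vascular endothelium, averaged 6.41 ± 1.42 FPKM in Fbn1C1041G/+ and 5.14 ± 2.48 FPKM in WT samples (SD, n = 3 each). Its log2 fold change of 0.34 became 0.0068 without WT replicate 3 and 0.63 without WT replicate 1.

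The remaining tested receptors had groups that overlapped and no call. Nrp2, the receptor of Sema3f, averaged 8.57 ± 2.76 FPKM in Fbn1C1041G/+ and 8.56 ± 4.13 FPKM in WT samples (SD, n = 3 each), with WT replicate 3 the highest library at 13.3 FPKM. Plxna1, a receptor of Sema6d, averaged 7.75 ± 1.95 FPKM in Fbn1C1041G/+ and 6.79 ± 0.618 FPKM in WT samples (SD, n = 3 each; log2 fold change 0.14). Plxna2 and Plxnb1, plexins for class 6 and class 4 semaphorins, had log2 fold changes of 0.21 and 0.18. Among the Eph receptor kinases, Epha2, Epha3, Epha4, Epha7, Ephb2 and Ephb3 had log2 fold changes between -0.14 and 0.21, and the netrin receptor Unc5c had one of -0.02.

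The 11 guidance genes below the filter were the ligands Efna3, Efna4, Efnb3, Sema4g, Sema5b and Slit1 and the receptors Epha5, Ephb1, Robo1, Robo2 and Dcc. The 3 mutant values lay below the 3 WT values for 4 of these 11, Sema4g, Epha5, Robo2 and Dcc, against 8.86% of the 6437 genes under the filter. Epha5, Robo2 and Dcc are described because of these values, which are therefore a description. The 6437 genes include every gene under the filter that was detected in any library, so the 8.86% is not matched for level. Robo2 (NCBI gene 268902), a slit receptor of neurons, stood at 0.07, 0.12 and 0.05 FPKM in Fbn1C1041G/+ replicates 1 to 3, against 0.65, 0.57 and 0.70 FPKM in WT replicates 1 to 3, or about 10, 15 and 7 fragments in Fbn1C1041G/+ and 89, 82 and 82 fragments in WT libraries. The ratio of the means, 0.125, was the lowest among the 59 genes. Epha5, an ephrin-A receptor of the nervous system, stood at 0.26, 0.64 and 0.31 FPKM in Fbn1C1041G/+ replicates 1 to 3, against 1.22, 1.53 and 1.33 FPKM in WT replicates 1 to 3. When no filter was applied and 19875 genes were tested, both were called lower in limma, Robo2 at an adjusted p of 0.00596 and Epha5 at 0.0286, where 3.55% of those genes were called lower and 0.508% higher. Robo2 stayed called without any 1 of the 6 libraries, with an adjusted p of up to 0.0496, but Epha5 did so only without Fbn1C1041G/+ replicate 2, with adjusted p of 0.0835 to 0.143 in the other 5 fits. Dcc, the netrin receptor, lay at 0.01 to 0.04 FPKM in Fbn1C1041G/+ and 0.09 to 0.15 FPKM in WT libraries, which is about 2 to 7 fragments in Fbn1C1041G/+ and 15 to 21 fragments in WT libraries, and was not called without the filter (adjusted p 0.138). Robo1 was at 0.49 to 0.88 FPKM in Fbn1C1041G/+ and 0.56 to 0.78 FPKM in WT libraries, so Slit3 had a higher FPKM than Robo1 and Robo2 in every library.

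**Figure D4:**
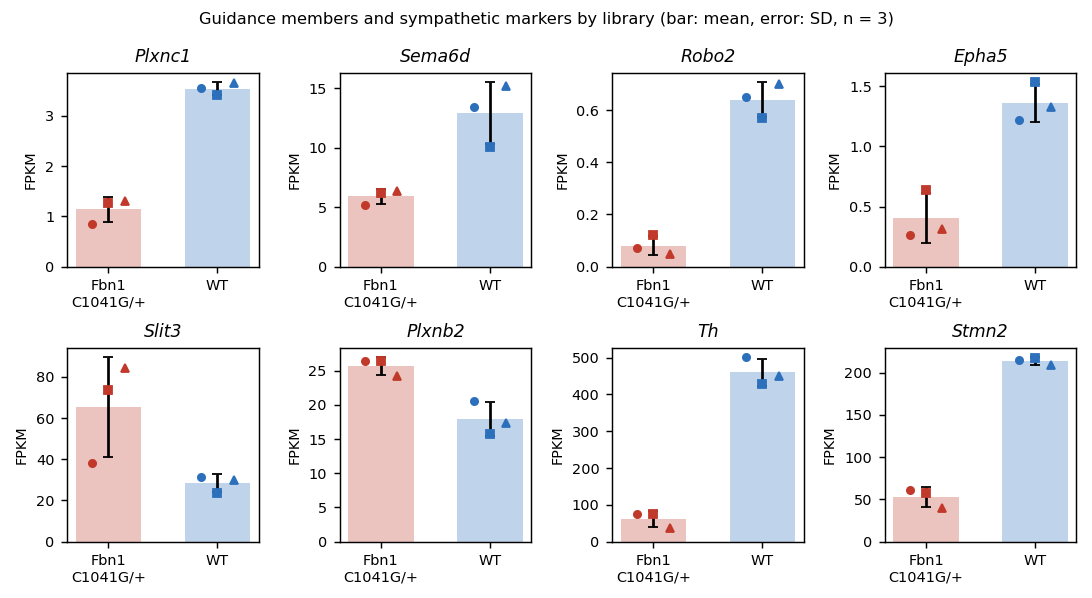
FPKM in each library of 6 guidance genes and of the sympathetic markers Th and Stmn2, red for Fbn1C1041G/+ and blue for WT, with bars for the mean and error bars for the SD (n = 3 each). Plxnc1, Sema6d, Robo2, Epha5, Th and Stmn2 are lower in all mutant libraries, Slit3 and Plxnb2 are higher, and Plxnc1 and Sema6d are the calls among the 6 at the filter used.

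The genotype difference in sympathetic markers ran alongside these lower values. Th, tyrosine hydroxylase, stood at 74.1, 75.2 and 36.7 FPKM in Fbn1C1041G/+ replicates 1 to 3, against 500.4, 429.3 and 451.02 FPKM in WT replicates 1 to 3. Stmn2, stathmin-2 of growing axons, averaged 52.7 ± 11.7 FPKM in Fbn1C1041G/+ and 213.6 ± 4.33 FPKM in WT samples (SD, n = 3 each). Fbn1C1041G/+ replicate 3 had the lowest Th, Stmn2 and Robo2 of the mutant libraries. Plxnc1, Sema6d and Epha5 were lowest in Fbn1C1041G/+ replicate 1, and that library held the lowest mutant value for 25 of the 48 tested guidance genes. For Epha5 the order was close, at about 32 and 35 fragments in Fbn1C1041G/+ replicates 1 and 3. None of the 10 sympathetic markers was at 0 in any library. Their part in the lower guidance genes was not tested.

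The promoters of 4 of these genes are shown as a reference for what lies at their start. These 4 are Plxnc1 and Sema6d, called lower, Robo2, called lower in the fit without a filter, and Slit3. Slit3 had the highest mean FPKM of the ligands over the 6 libraries. Epha5, also called lower without a filter, is not shown. Each window runs from 250 bases before to 50 bases after a RefSeq start, on the gene's own strand in GRCm38.p6, and capitals mark GC boxes, GGGCGG or its reverse complement CCGCCC, searched on both strands with overlapping matches counted. For Sema6d and Robo2, which have 2 and 3 listed starts, the first listed is printed. The windows are chr10:94944796-94945095 (minus strand) for Plxnc1, chr2:124089719-124090018 (plus) for Sema6d, chr16:75447244-75447543 (minus) for Robo2 and chr11:35121206-35121505 (plus) for Slit3.
Plxnc1: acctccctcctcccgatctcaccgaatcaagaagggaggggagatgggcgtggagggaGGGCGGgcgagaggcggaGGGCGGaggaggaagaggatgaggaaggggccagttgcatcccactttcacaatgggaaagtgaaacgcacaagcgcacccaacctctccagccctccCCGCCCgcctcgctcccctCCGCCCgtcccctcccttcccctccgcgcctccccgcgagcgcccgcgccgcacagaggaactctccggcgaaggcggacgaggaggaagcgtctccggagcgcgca
Sema6d: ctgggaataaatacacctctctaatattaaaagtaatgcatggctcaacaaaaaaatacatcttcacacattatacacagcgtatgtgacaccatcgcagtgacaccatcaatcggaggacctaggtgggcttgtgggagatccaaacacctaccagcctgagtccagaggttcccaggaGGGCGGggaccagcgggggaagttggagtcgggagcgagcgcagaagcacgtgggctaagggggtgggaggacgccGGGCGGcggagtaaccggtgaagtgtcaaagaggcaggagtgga
Robo2: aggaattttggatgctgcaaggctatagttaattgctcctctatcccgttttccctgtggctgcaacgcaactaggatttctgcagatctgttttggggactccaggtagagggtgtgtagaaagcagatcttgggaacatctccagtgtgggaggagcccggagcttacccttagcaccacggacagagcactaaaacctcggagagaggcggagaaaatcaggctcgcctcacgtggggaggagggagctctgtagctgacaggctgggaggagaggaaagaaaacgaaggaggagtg
Slit3: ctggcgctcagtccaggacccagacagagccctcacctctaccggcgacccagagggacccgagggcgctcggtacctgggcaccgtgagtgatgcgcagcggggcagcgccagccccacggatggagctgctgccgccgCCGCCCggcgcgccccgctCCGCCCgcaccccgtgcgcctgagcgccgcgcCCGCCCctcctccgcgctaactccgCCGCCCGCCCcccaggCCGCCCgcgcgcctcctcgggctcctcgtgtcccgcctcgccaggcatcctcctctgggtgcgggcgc
GC boxes numbered 4 in the Plxnc1 window, 2 in Sema6d, 0 in the first listed window of Robo2 and 6 in Slit3. The E-box CACGTG occurred 1 time each in Sema6d and Robo2, and TATAAA on either strand in none of the 4. Over all 32851 promoter windows of this length, 35.7% held a GC box, 7.15% the E-box and 13.6% a TATAAA. Of the guidance genes 50 had a listed window, 66 windows in all, of which 69.7% held a GC box, 6.06% the E-box and 3.03% a TATAAA. A match is a description of letters and not a binding site.

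Other genes that work with these ligands and receptors were read from a list of 74, of which 63 passed the filter. The list was chosen with earlier results of these data known, so the share called on it is a description. Called lower were 11 of the 63 (17.5%) and called higher 1 (1.59%), beside 4.85% and 0.744% of all tested genes, and their median log2 fold change was 0.02. Lower were 4 of 12 tested further receptors and adhesion partners, 7 of 40 signalling genes inside the cell and 0 of 11 ligand-processing and coreceptor genes. L1cam, an axonal adhesion molecule that partners neuropilin-1, stood at 10.4, 16.7 and 9.63 FPKM in Fbn1C1041G/+ replicates 1 to 3, against 33.9, 36.8 and 41.9 FPKM in WT replicates 1 to 3, with the groups far apart (log2 fold change -1.57 ± 0.22, SE; limma adjusted p = 0.00692). Its relatives Nrcam and Chl1 had log2 fold changes of -1.35 and -1.33, and the plexin gene Plxna3, which pairs with neuropilin-2, had one of -0.91. The call of Plxna3 (limma adjusted p = 0.0389) was lost with no filter (0.0717).

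Among the genes that act inside the cell were collapsin response mediators, which carry semaphorin signals to the growth cone. Crmp1 stood at 5.83, 4.41 and 2.70 FPKM in Fbn1C1041G/+ replicates 1 to 3, against 25.8, 21.04 and 13.5 FPKM in WT replicates 1 to 3. The groups were separate, and replicate 3 was the lowest in each (log2 fold change -1.99 ± 0.30, SE; limma adjusted p = 0.00939). Dpysl5, Dpysl2 and Dpysl4 had log2 fold changes of -1.64, -1.14 and -1.07. Dpysl4 and Plxna3 lie outside the rule for named genes and were added after their values were seen. Dpysl4 averaged 0.697 FPKM in Fbn1C1041G/+ and 2.54 FPKM in WT samples, so it passed the filter through the WT values. The call of Dpysl5 ended without Fbn1C1041G/+ replicate 1 (adjusted p 0.0598) and without WT replicates 1 and 2 (0.0640 and 0.0751), and that of Dpysl2 without Fbn1C1041G/+ replicates 2 and 3 (0.121 and 0.140) and without WT replicates 1 and 2 (0.144 and 0.142). Like that of Plxna3, the call of Dpysl2 was also lost with no filter (limma adjusted p = 0.0654). Dpysl3, by far the most abundant of the family, averaged 55.2 ± 6.35 FPKM in Fbn1C1041G/+ and 71.0 ± 11.5 FPKM in WT samples (SD, n = 3 each), without a call (log2 fold change -0.35). Chn1, a Rac-inactivating protein that acts after Eph receptors, averaged 5.63 ± 0.756 FPKM in Fbn1C1041G/+ and 15.7 ± 0.758 FPKM in WT samples (SD, n = 3 each; log2 fold change -1.34, limma adjusted p = 0.00262). Pak1, a kinase activated by Rac, had a log2 fold change of -1.09. The sympathetic markers that were lower in the same libraries include genes of neurons, where L1cam, Crmp1 and Dpysl5 are also expressed; their part in these values was not tested.

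Cd72 was the gene of that list that rose. It encodes a B cell surface protein that binds Sema4d, and stood at 5.08, 4.35 and 5.22 FPKM in Fbn1C1041G/+ replicates 1 to 3, against 1.80, 0.93 and 0.96 FPKM in WT replicates 1 to 3, with no overlap (log2 fold change 1.42 ± 0.19, SE; limma adjusted p = 0.00611). The 3 genes of the lymphocyte list, Cd3e, Cd79a and Ptprc, summed to 9.19 to 36.9 FPKM in Fbn1C1041G/+ and 3.51 to 5.22 FPKM in WT libraries. None was at 0 in any library, and only Ptprc, which is not limited to lymphocytes, was called. Cd79a stood at 17.6, 4.70 and 23.2 FPKM in Fbn1C1041G/+ replicates 1 to 3, against 3.54, 1.42 and 1.33 FPKM in WT replicates 1 to 3. Its groups did not overlap, but it was not called (limma adjusted p = 0.0712; log2 fold change 2.22 ± 0.55, SE). The groups overlapped for Cd3e. The part of these lymphocyte list genes in the rise of Cd72 was not tested. The 4 most abundant genes of the list were Rras, a GTPase that plexins inactivate, Itgb1, the integrin chain used by Sema7a, Vasp, an actin regulator, and Dpysl3. Rras averaged 358.1 ± 69.1 FPKM in Fbn1C1041G/+ and 326.7 ± 74.5 FPKM in WT samples, Itgb1 355.2 ± 86.4 FPKM in Fbn1C1041G/+ and 316.3 ± 13.9 FPKM in WT samples, and Vasp 68.3 ± 9.85 FPKM in Fbn1C1041G/+ and 61.6 ± 24.7 FPKM in WT samples (SD, n = 3 each), with no call.

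Guidance genes also varied within a genotype, and 1 library stood apart. In WT replicate 3, Unc5a, Sema6c, Sema3f, Sema6b and Ntn1 were lower than the mean of WT replicates 1 and 2 by more than 1 on the log2(FPKM + 1) scale. Sema6b was at 0.49 FPKM there, against 5.15 and 4.41 FPKM in WT replicates 1 and 2, and Sema6c at 0.56 FPKM, against 7.46 and 4.61 FPKM. In Fbn1C1041G/+ replicates 1 to 3, Sema6b was at 7.01, 5.81 and 3.66 FPKM and Sema6c at 4.58, 4.47 and 2.36 FPKM. All 5 have GC-rich transcripts, from 58.0% GC in Ntn1 to 63.5% in Sema6c, where the median of the 48 tested guidance genes was 56.4%. Across these 48 genes the deviation of a library from its group mean correlated with GC content at 0.43, -0.05 and -0.43 in Fbn1C1041G/+ replicates 1 to 3. The same correlations were 0.44, 0.59 and -0.57 in WT replicates 1 to 3. These are correlations across genes of the same libraries and describe the libraries, since deviations within a group sum to 0. Plxnc1 and Sema6d, at 49.3% and 49.5% GC, were not low in WT replicate 3, and with values corrected for GC content their adjusted p values in limma were 0.00542 and 0.00916. Within the mutant group, replicate 1 held the lowest value for 25 and replicate 2 the highest value for 25 of the 48 genes.

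**Figure D5:**
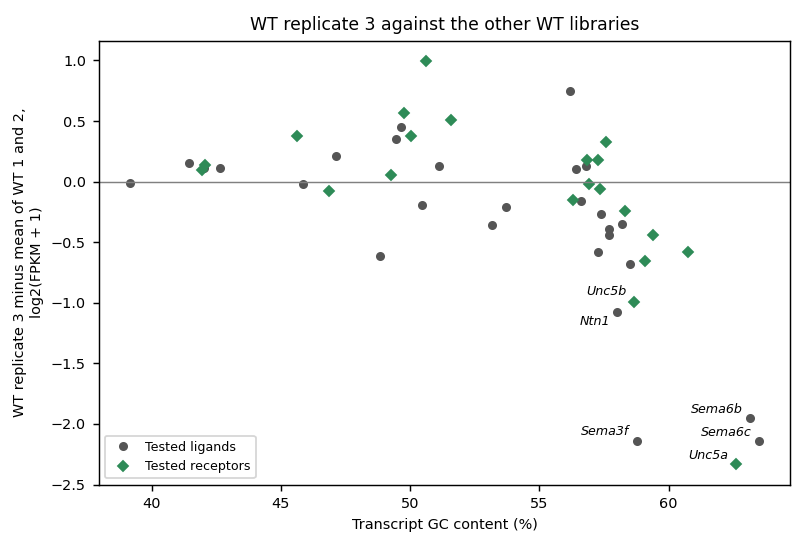
Difference on the log2(FPKM + 1) scale between WT replicate 3 and the mean of WT replicates 1 and 2 (vertical) against transcript GC content in percent (horizontal) for the 48 tested guidance genes, circles for ligands and diamonds for receptors. Unc5a, Sema6c, Sema3f and Sema6b lie lowest, all at 58.8% GC or more.

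Some values could hold reads of other genes. In the GENCODE M21 annotation, which is of a later build than the files, 10 of the 59 guidance genes share exonic bases with a gene on the opposite strand, among them Plxna4 (110 bases), Unc5a (34) and Ephb4 (33). The labels do not give a stranded protocol, so such reads cannot be told apart. Plxnc1 shares 115 bases with another annotated gene on its own strand, as do Nrp1 (80) and Sema4a (73) with a microRNA gene, and Sema6d, Slit3, Robo2 and Epha5 share none.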

How the data were processed

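Expression came as FPKM, computed by the authors for each gene in each sample and rounded to 2 decimals, per the file headers. The submitters' processing notes name mm9 and no tool; which aligner, quantifier and gene models were used is not given in the sources used here. Of 21117 NCBI gene numbers, 21059 were paired with a symbol through RefSeq (GRCm38.p6), and 0 sample columns were unmapped. Depth was estimated as the number of fragments that best put low values of genes with 1 transcript on whole fragments (77.6% to 81.2% within 0.2 of one), with no interval. FPKM are not counts, so limma 3.58.1 in R 4.3.3 was fitted (lmFit, eBayes with trend, 2-sided, Benjamini-Hochberg) on log2(FPKM + 1), a scale that understates changes of low genes, for the 13438 genes averaging 1 FPKM or more. The test was checked on simulated data, which held no GC or replicate effects and planted no changes in genes as low as Plxnc1. An exact permutation test of 3 against 3 cannot give a p below 0.1, so none was used. Nothing in the labels says that the samples are separate animals; the spread behind each p-value is that between samples and may be technical. Libraries of a pair held the same value for at most 1.83% of non-zero genes.

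The guidance genes, the pathway list, the 10 marker lists and the rule for named genes were chosen with earlier results of these data known. That rule takes every called guidance gene, the 5 most abundant ligands and receptors, the 3 of each with the smallest unadjusted p in each direction among those not called, up to 10 called and the 4 most abundant genes of the pathway list, and the first 3 of each marker list; 2 genes that it names are not reported here. Alternatives were other pseudocounts, filters, scalings, moderation, sample weights, a replicate block, each library left out and another threshold. GC correction, with a loess span of 0.3 on GENCODE M21 transcript GC content, and fits without a filter that left out a library or used a pseudocount of 0.1 were added after the data were seen. Figures were drawn with matplotlib 3.10.9.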

Additional observations from a re-analysis of the deposited data

How the results depend on the processing

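Over the whole table the counts of lower and higher genes, 652 and 100, were 1011 and 285 with sample weights and 349 and 33 when genes averaging under 5 FPKM were dropped, and the higher count was 184 at an adjusted p under 0.10. Leaving out 1 library gave 389 to 751 lower and 37 to 192 higher genes. Guidance ligands called lower were 3 with sample weights in place of 1, and 0 to 1 with a library left out. Ligands called higher were 1 with sample weights and 1 at an adjusted p under 0.10, Slit3 in both, in place of 0, and 0 to 1 with a library left out. Receptors called lower were 3 with no filter, 0 with a filter at 5 FPKM, which removes Plxnc1, 2 with sample weights, 2 with GC correction and 1 to 3 with a library left out, in place of 1. Pathway genes called lower were 9 with no filter, 10 with the replicate block and 7 to 10 with a library left out, in place of 11, and 0 were higher with a filter at 5 FPKM, which removes Cd72. With sample weights the log2 fold changes of Sema3f, Rras and Vasp turned to -0.062, -0.045 and -0.0098. With a library left out, that of Sema3f ran from -0.24 (without WT replicate 3) to 0.90, of Nrp1 from -0.035 (without WT replicate 2; -0.0054 without Fbn1C1041G/+ replicate 2) to 0.18, of Rras from -0.036 (without WT replicate 3; -0.0085 without Fbn1C1041G/+ replicate 1) to 0.30, of Itgb1 from -0.012 (without Fbn1C1041G/+ replicate 3) to 0.35 and of Vasp from -0.15 (without WT replicate 3) to 0.47. For the other moves the cause was not tested. The ligand median ran from -0.062 (sample weights) to 0.14 and the receptor median from -0.0074 to 0.19. Robo2 and Epha5 lay under the filter; with no filter and a pseudocount of 0.1 their adjusted p values were 0.00938 and 0.0551.

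Whether the replicate numbers pair the samples could not be told from the values. Deviations of same-numbered libraries correlated at 0.26, -0.02 and 0.10, and those of differently numbered libraries at -0.19 to 0.10. Deviations within a group sum to 0 and vary with GC content, so these correlations cannot settle it. With the replicate block 586 genes were lower and 112 higher, and the guidance counts were 1 and 1 lower and 0 higher, with adjusted p values of 0.0234 for Plxnc1 and 0.0323 for Sema6d.

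Depth limits the low genes most, since Dcc, Robo2 and Slit1 rested on few fragments, and 11 guidance genes could not enter the filtered test.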
